A study of Mus musculus with 18 samples.

Results

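The genes described here are the variable (V) segments of the T cell receptor alpha and beta chains, with attention to those that the OT-II transgenic receptor does not use. All Ensembl identifiers of GENCODE mouse release M21 with the biotype of a T cell receptor V gene and a symbol starting with Trav or Trbv were taken, which gave 130 of the 55536 identifiers in the count table. There were 108 Trav segments, which lie on chromosome 14 between 52427928 and 53977678, and 22 Trbv segments, which lie on chromosome 6 between 40891229 and 41558452 (GRCm38). OT-II is built from Va2, encoded by the 9 Trav14 segments, and Vb5, encoded by Trbv12-1 and Trbv12-2, which leaves 119 other segments, 99 alpha and 20 beta.

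RNA was sequenced in 18 libraries of CD4 T cells from C57BL/6 mice, in 6 groups of 3, and all groups carried the OT-II receptor. The peripheral groups were naive cells (CD44low CD62L+) from spleens and lymph nodes with 4 genotypes: OTII, W131AOTII, and the same pair on a Cbl-b-/- background (Cbl-b-/-OTII, Cbl-b-/-W131AOTII). The thymic groups were CD4 single-positive thymocytes of OTII and W131AOTII mice. Cells of all groups were sorted as CD25neg Va2+, so the sort selected on the alpha chain and not on the beta chain. W131A is a substitution in ZAP-70, the kinase that carries the signal of the receptor, and the Cbl-b-/- mice lack an E3 ubiquitin ligase known to dampen T cell activation. The cells came from 3 OTII mice, 12 W131AOTII mice with 4 per group, 3 Cbl-b-/- mice and 6 Cbl-b-/-W131AOTII mice with 2 per group, so that some libraries hold pooled animals. The sources used here do not assign mice to libraries, so p-values reflect only how much these libraries vary, which may be technical. They give no ages or processing days either. A day or colony shared by the Cbl-b-/- libraries and the loss of Cbl-b cannot be told apart.

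A T cell assembles each receptor chain by joining a V segment to a joining (J) segment, with a diversity segment between them in the beta chain. A rearranged beta transgene usually holds back rearrangement of the cell's own beta genes, a process called allelic exclusion, which is less strict for the alpha chain. Unrearranged V segments can also be transcribed, and counts per gene in bulk RNA do not separate rearranged from unrearranged copies. Fewer cells that use a segment and less RNA per such cell cannot be told apart in bulk libraries either.

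Reads were 50 bases long, and many V segments share stretches of that length with close copies. The last 90 bases of the V exon end in the region that carries the conserved cysteine, and they are shown for the OT-II segments because the copies differ by few bases there. For the Vb5 pair, capitals mark the bases at which Trbv12-2 (chr6:41119275-41119364, plus strand) and Trbv12-1 (chr6:41113978-41114067, plus strand) differ from each other, 5 of 90.
Trbv12-2: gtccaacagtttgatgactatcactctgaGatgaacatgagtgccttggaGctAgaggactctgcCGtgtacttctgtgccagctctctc
Trbv12-1: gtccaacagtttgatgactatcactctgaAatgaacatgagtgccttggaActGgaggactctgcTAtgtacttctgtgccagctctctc
For the Va2 copies, capitals mark the bases that differ from Trav14-1 (chr14:53554469-53554558, plus strand). Trav14-2 lies at chr14:53641136-53641225, Trav14-3 at chr14:53763605-53763694 and Trav14d-1 at chr14:52856077-52856166, all on the plus strand.
Trav14-1: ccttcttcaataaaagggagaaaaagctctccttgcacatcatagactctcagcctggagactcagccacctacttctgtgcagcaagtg
Trav14-2: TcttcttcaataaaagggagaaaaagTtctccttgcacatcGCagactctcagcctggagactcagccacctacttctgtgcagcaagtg
Trav14-3: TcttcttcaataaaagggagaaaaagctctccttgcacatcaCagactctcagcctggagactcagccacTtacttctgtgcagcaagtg
Trav14d-1: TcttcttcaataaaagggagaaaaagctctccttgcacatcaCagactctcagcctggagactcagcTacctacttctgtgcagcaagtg
Over their last 280 bases Trbv12-2 and Trbv12-1 were 88.9% identical, with 31 differing bases. The pairs Trav14d-1 and Trav14n-1, and Trav14d-2 and Trav14n-2, were identical over those bases.

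Most of the segments without counts had no sequence of their own. In all 18 libraries 40 Trav segments were listed at 0, among them 4 of the 9 Trav14 copies (Trav14d-1, Trav14n-1, Trav14d-2 and Trav14n-2) and both Trav11 copies, the segments of invariant natural killer T cells. Of those 40, 37 had no 50-base window that was absent from the transcripts of every other gene. Of the 68 Trav segments with a count, 1 (Trav7d-5, with 3 counts in all) had no such window, and the median share of unique windows was 55.8%. The relation was not strict, since Trav15d-1-dv6d-1 had 12.7% unique windows and 0 counts, and Trav6d-3 had 2.2% and 61 counts. A count of 0 in a segment without a unique window cannot be read as a measure of its use, and values of near-identical copies are uncertain because the sources used here do not say how reads with several matches were counted. The beta segments were more distinct, since 20 of 22 had at least 50% unique windows and 17 had 100%. Trbv4 (27.9%) and Trbv5 (22.6%) were the exceptions, because most of their windows also lie in an overlapping gene.

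**Figure D1:**
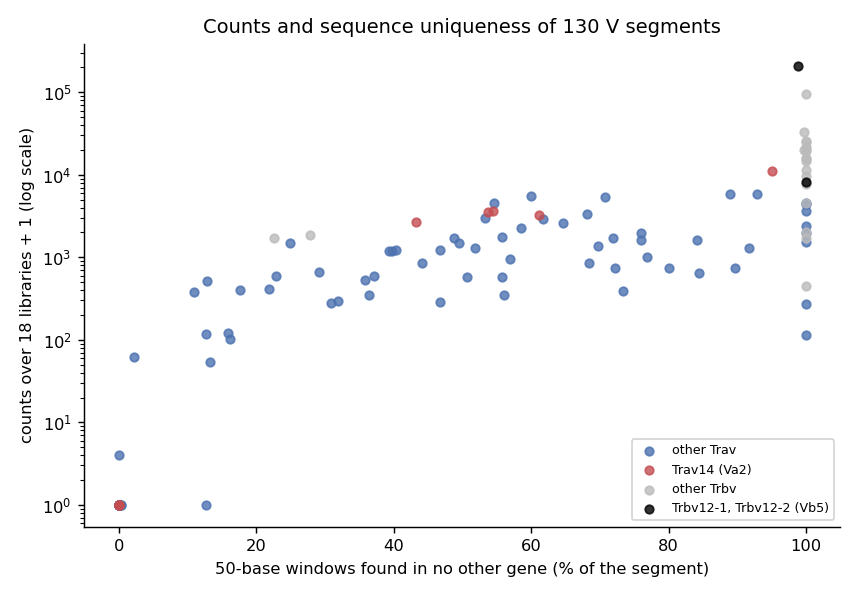
Each point is 1 of the 130 V segments, with the share of its 50-base windows found in no other gene's transcripts on the x axis (%) and its counts summed over 18 libraries plus 1 on a log y axis. The 40 segments with 0 counts sit at the bottom, 37 of them at 0% unique windows, and Trbv12-2 has the most counts.

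Total counts per library ran from 19708218 to 36218772. Alpha segments took 4934 to 8403 counts per library and beta segments 20952 to 48551. Trav counts were only 1.82 to 3.55 per 100 counts of the alpha constant gene Trac, whereas Trbv counts were 36.4 to 53.7 per 100 counts of the beta constant genes Trbc1 and Trbc2. Although all cells were sorted as Va2+, the Trav14 segments held 14.97% to 38.6% of Trav counts, so the alpha share described below is a share of assigned counts and not a share of cells. After the filter on low counts 86 segments were tested, 64 alpha and 22 beta. The 44 that did not pass were the 40 at 0 and Trav13d-1, Trav6d-3, Trav7d-5 and Trav9d-4.

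Per kilobase of exon, Trbv12-2 had the highest mean level of the beta segments, 1088 CPM (read counts scaled to the library's size) per kilobase, and Trbv12-1 reached 42.1. Trbv31 was next with 452.7 CPM per kilobase, followed by Trbv13-2 with 191.2, Trbv26 with 116.6, Trbv13-3 with 115.1, Trbv1 with 113.8 and Trbv3 with 108.3. Over the 18 libraries the ranges of neighbours in this order overlapped, except between Trbv31 (364.8 to 746.9) and Trbv13-2 (107.4 to 289.0). Trbv31 lies apart from the other segments, downstream of the constant genes and on the opposite strand. It was the largest of the other beta segments in every library, with 16.8% to 38.6% of their counts. In the alpha locus Trav14-1 led with 56.0 CPM per kilobase, then Trav7-5 (34.8), Trav15-1-dv6-1 (29.8), Trav13-1 (27.8), Trav3-3 (26.9), Trav17 (26.1), Trav12-2 (25.7), Trav21-dv12 (24.7) and Trav1 (19.8), the segment of mucosal-associated invariant T cells. These levels were much closer to each other than those of the beta locus. The effective number of other segments (the exponential of the Shannon entropy of their shares) was 37.1 to 41.7 for alpha in all libraries and 9.54 to 13.8 for beta.

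Segments other than Vb5 held more of the beta counts in W131A cells. In peripheral OTII libraries the other segments took 50.3%, 46.1% and 46.7% of Trbv counts. In peripheral W131AOTII libraries they took 69.8%, 73.9% and 64.8%, all above the OTII libraries. The same order was found without Cbl-b, where the share was 48.6%, 56.8% and 52.4% in the 3 OTII libraries and 69.3%, 67.0% and 63.5% in the 3 W131AOTII libraries. Thymic groups overlapped, at 59.5%, 64.8% and 55.4% in OTII and 69.5%, 62.8% and 64.8% in W131AOTII cells.

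The mean difference between W131A and control groups was 21.8 percentage points in the periphery, 14.0 in the periphery without Cbl-b and 5.80 in the thymus. Averaged over these 3 strata it was 13.9 percentage points (two-sided exact permutation test within strata, p = 0.0005, adjusted p = 0.003 over 6 share tests; the smallest p the test can give is 0.00025). The call depended on counting Trbv12-2, which carries most Vb5 counts, as OT-II, since with Trbv12-1 alone the difference was 0.268 percentage points (exact permutation adjusted p = 0.0525). The loss of Cbl-b moved the beta share by 4.91 percentage points in OTII and by -2.90 in W131AOTII cells, with overlapping libraries in both (exact permutation p = 0.675, adjusted p = 0.81). Peripheral cells had 12.2 percentage points less than thymocytes in the OTII genotype, without overlap, and 3.83 more in W131AOTII cells, with overlap, and the average of these opposite differences was not past the threshold (exact permutation p = 0.255, adjusted p = 0.383). With Trbv12-1 alone as OT-II that average was 1.19 percentage points, the opposite sign to the -4.19 with both (exact permutation adjusted p = 0.01).

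**Figure D2:**
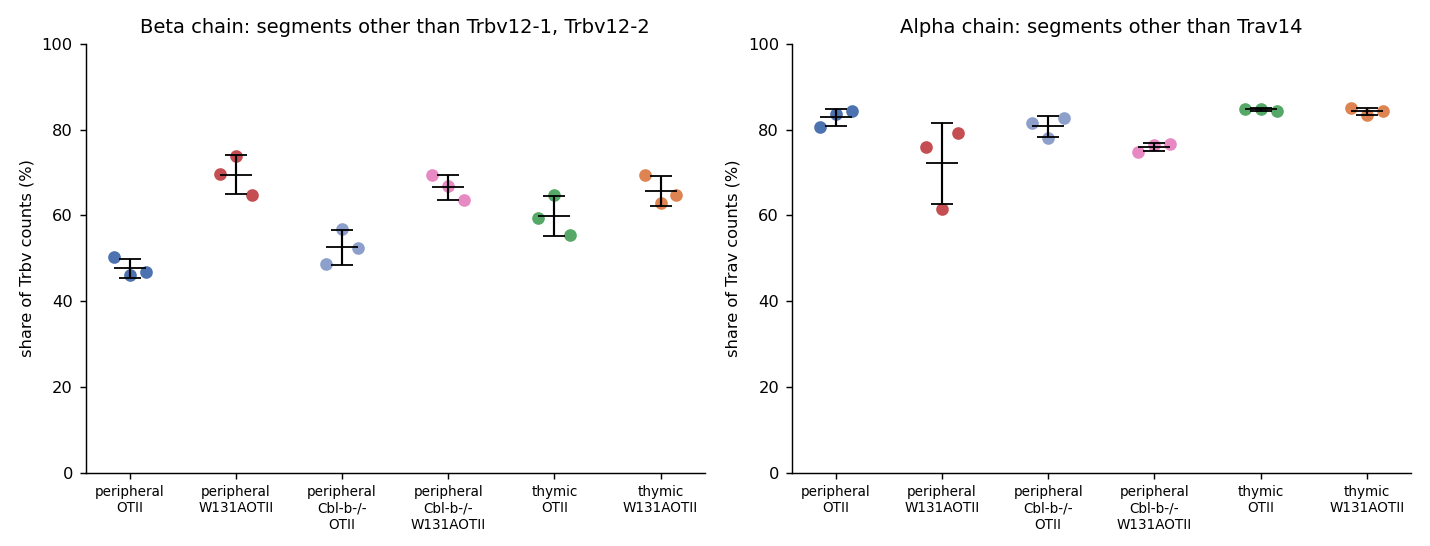
Points are the 3 libraries of each group, and bars are the mean ± SD, for the share of Trbv counts outside Trbv12-1 and Trbv12-2 (left, %) and of Trav counts outside Trav14 (right, %). The beta share was 46.1% to 50.3% in peripheral OTII and 64.8% to 73.9% in peripheral W131AOTII libraries, while the alpha share was lowest, at 61.4%, in peripheral W131AOTII replicate 2.

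Both parts of the share were then compared as levels. Summed levels of the other 20 beta segments were 457, 449 and 419 CPM in peripheral OTII and 960.0, 839 and 795 CPM in peripheral W131AOTII libraries. Without Cbl-b they were 561, 831 and 537 CPM for OTII and 906, 930.5 and 738 CPM for W131AOTII, so that Cbl-b-/-OTII replicate 2 overlapped the W131A group. In the thymus they were 611, 700.1 and 510.4 CPM in OTII and 694, 567 and 722 CPM in W131AOTII libraries, which overlapped. Summed Vb5 levels were 452, 526 and 477 CPM in peripheral OTII and 416, 296 and 432 CPM in peripheral W131AOTII libraries. Without Cbl-b the Vb5 levels were 594, 632 and 488 CPM for OTII and 400.3, 459 and 424 CPM for W131AOTII, without overlap. In the thymus they were 417, 381 and 410.2 CPM for OTII and 305, 336 and 392 CPM for W131AOTII, with overlap. Group means of the other segments went from 442 to 865 CPM in the periphery while those of Vb5 went from 485 to 381 CPM, whereas in the thymus the means went from 607 to 661 CPM and from 403 to 344 CPM, differences of like size in opposite directions. Of the Vb5 pair, Trbv12-2 carried nearly all counts, with 439.8, 516 and 467 CPM in peripheral OTII and 400.0, 285 and 422 CPM in peripheral W131AOTII libraries. The W131AOTII libraries were lower without overlap, but the log2 fold change of -0.36 (SE 0.15) was not past the threshold (edgeR quasi-likelihood adjusted p = 0.363), and Trbv12-1 had 0.17 (SE 0.24).

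**Figure D3:**
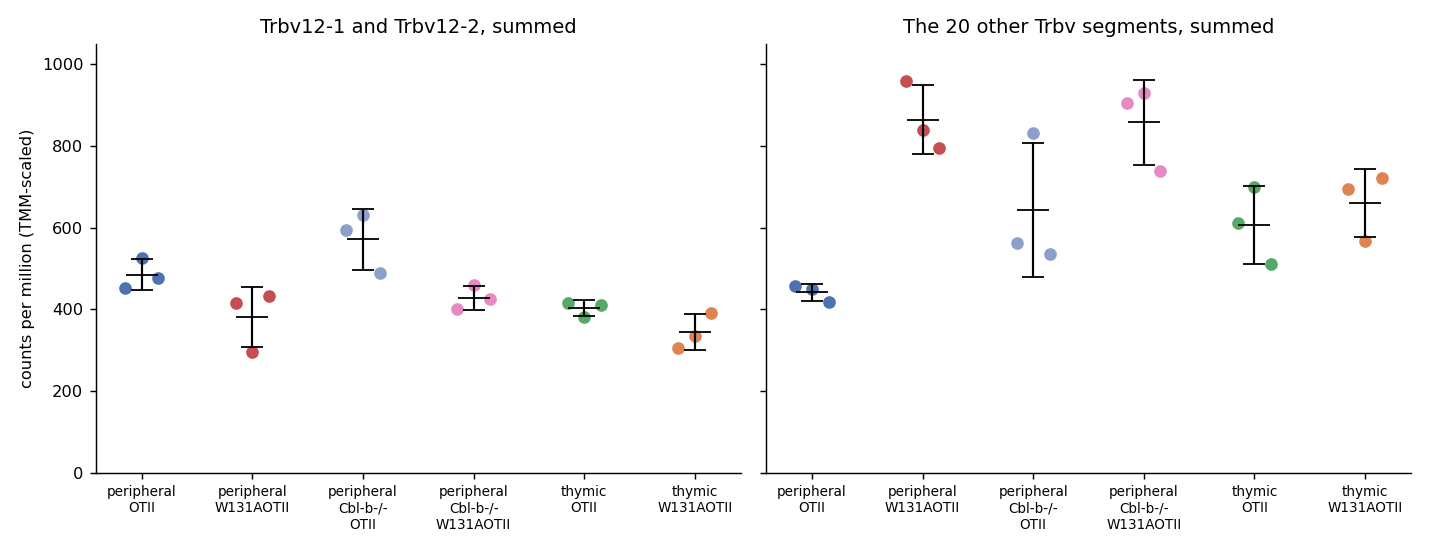
Summed levels in TMM-scaled CPM of Trbv12-1 and Trbv12-2 (left) and of the 20 other Trbv segments (right), 3 libraries per group as points with the mean ± SD. Peripheral W131AOTII libraries lay at 795 to 960.0 CPM for the other segments, against 419 to 457 CPM in peripheral OTII libraries.

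Single segments were compared in 1 fit over all genes. In peripheral W131AOTII against OTII cells 14 of the 20 other beta segments were higher and 0 lower (edgeR quasi-likelihood test, Benjamini-Hochberg adjusted p under 0.05 over 15204 genes), where 1.93% of all genes changed (1.68% higher and 0.25% lower). Their median log2 fold change was 1.34, and that of all genes tested was -0.001. Trbv2 had 16.3, 13.5 and 12.4 CPM in OTII and 57.0, 46.6 and 40.7 CPM in W131AOTII libraries (log2 fold change 1.77, SE 0.20, adjusted p = 2.78e-05). Trbv3 had 22.4, 19.4 and 16.6 CPM in OTII and 80.5, 71.7 and 54.4 CPM in W131AOTII libraries (log2 fold change 1.82, SE 0.22, adjusted p = 4.42e-05). Trbv1, the most upstream segment of the locus, had 22.2, 21.3 and 20.1 CPM against 94.9, 91.8 and 68.3 CPM, a log2 fold change of 2.00 (SE 0.27), the highest of all segments in this comparison.

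In each of these segments every W131AOTII library lay above every OTII library. Trbv19 rose by 1.67 (SE 0.22) on the log2 scale, Trbv5 by 1.73 (SE 0.30), Trbv13-1 by 1.5 (SE 0.23), Trbv16 by 1.44 (SE 0.25), Trbv13-3 and Trbv14 by 1.39 (SE 0.21 and 0.23), Trbv20 by 1.39 (SE 0.20), Trbv23 by 1.29 (SE 0.29), Trbv15 by 1.17 (SE 0.26), Trbv29 by 1.04 (SE 0.27) and Trbv13-2 by 0.99 (SE 0.21). The segments that did not pass were Trbv30, Trbv17, Trbv4, Trbv31, Trbv26 and Trbv21, with log2 fold changes of 1.28, 0.87, 0.45, 0.24, -0.15 and -0.41. Of these, Trbv30, Trbv17, Trbv4 and Trbv31 were also without overlap, so separate libraries did not by themselves mark a call. The share of all genes without overlap is not given here, so the number of separate segments has no background. The count of 14 was 10 without OTII replicate 1 or without OTII replicate 3, 12 without W131AOTII replicate 1 or 2 and 14 without the 3 libraries that stood apart from their groups (W131AOTII replicate 2, Cbl-b-/-OTII replicate 2 and thymic OTII replicate 3).

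Trbv31 did not follow the other beta segments. As the largest of them it had 169.2, 169.2 and 161.6 CPM in peripheral OTII and 195.2, 174.4 and 219.2 CPM in peripheral W131AOTII libraries (log2 fold change 0.24, SE 0.17, adjusted p = 0.83), a small difference without overlap. Its share of the other beta counts fell from a mean of 37.8% ± 0.80 (SD, n = 3) to 22.9% ± 4.04, and the effective number of other beta segments was 9.83 ± 0.27 in OTII and 12.9 ± 0.77 in W131AOTII cells. Trbv26 overlapped between the groups, with 43.8, 45.5 and 44.3 CPM in OTII and 45.2, 32.4 and 43.2 CPM in W131AOTII libraries.

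The ends of 3 segments are printed as examples of the 4 that were past the threshold in both peripheral W131A comparisons, Trbv20 being the other. Capitals mark the codon of the conserved cysteine. Trbv2 lies at chr6:41047906-41047995, Trbv3 at chr6:41048739-41048828 and Trbv19 at chr6:41178959-41179048, all on the plus strand, and the sequences around the codon differ enough that 100% of the 50-base windows of these segments were unique.
Trbv2: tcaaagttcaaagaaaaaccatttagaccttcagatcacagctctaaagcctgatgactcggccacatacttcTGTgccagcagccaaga
Trbv3: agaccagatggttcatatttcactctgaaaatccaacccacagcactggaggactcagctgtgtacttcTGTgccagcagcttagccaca
Trbv19: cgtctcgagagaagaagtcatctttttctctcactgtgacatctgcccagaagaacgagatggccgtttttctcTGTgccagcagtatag

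Without Cbl-b the pattern over beta segments was alike, with smaller differences. In Cbl-b-/-W131AOTII against Cbl-b-/-OTII cells 4 of the 20 other beta segments were higher, Trbv2, Trbv3, Trbv19 and Trbv20, and 0 were lower, where 1.89% of all genes changed (0.802% higher and 1.09% lower). The median log2 fold change of the 20 was 0.62, against -0.018 over all genes. Trbv2 had 15.4, 26.3 and 17.2 CPM without W131A and 52.8, 49.0 and 35.7 CPM with it (log2 fold change 1.22, SE 0.20, adjusted p = 0.00154). Trbv3 had 32.2, 42.2 and 44.6 CPM against 108.3, 102.3 and 69.5 CPM (log2 fold change 1.23, SE 0.22, adjusted p = 0.00291). Both groups of libraries were separate in each segment. Trbv19 lost the call without Cbl-b-/-OTII replicate 1 or Cbl-b-/-W131AOTII replicate 1 or 2, and Trbv20 without any 1 library other than Cbl-b-/-W131AOTII replicate 3. Trbv1 had a log2 fold change of 1.02 (SE 0.27, adjusted p = 0.053), and Trbv31 of -0.30 (SE 0.17, adjusted p = 0.385). Across the 20 segments the log2 fold changes of the 2 peripheral W131A comparisons, which share no library, had a Pearson r of 0.93 and a Spearman rho of 0.91. These values are across segments of 1 locus, which are not independent replicates.

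The difference between the 2 peripheral W131A effects was not past the threshold for any segment. The interaction of W131A and Cbl-b loss gave 0 of 86 segments (edgeR adjusted p under 0.05), where 0.631% of all genes changed (0.0395% higher and 0.592% lower). At an unadjusted p under 0.05 it gave 9 segments, all lower, and DESeq2 gave 0. The shares of all genes in this text are for edgeR adjusted p. No share is given at an unadjusted p or for DESeq2, so counts of those 2 kinds have no background.

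In the thymus no beta segment passed in W131AOTII against OTII cells, where 2.77% of all genes changed (1.73% higher and 1.04% lower). At an unadjusted p under 0.05 the edgeR test gave 1 of the 20 other beta segments, and DESeq2 called 0. Their median log2 fold change was 0.13. Trbv2 had 23.0, 27.1 and 22.3 CPM in thymic OTII and 30.4, 26.9 and 31.9 CPM in thymic W131AOTII libraries, which overlapped (log2 fold change 0.30, SE 0.20, adjusted p = 0.467). Trbv1 had 27.0, 44.3 and 21.7 CPM against 45.3, 27.3 and 34.5 CPM (log2 fold change 0.20, SE 0.27). The test of the difference between the peripheral and the thymic W131A effect called 5 segments, all with a larger effect in the periphery, where 0.381% of all genes changed (0.296% higher and 0.0855% lower). They were Trbv1 (difference 1.80, SE 0.38), Trbv3 (1.57, SE 0.30), Trbv2 (1.47, SE 0.28), Trbv13-3 (1.42, SE 0.29) and Trbv19 (1.39, SE 0.30), with adjusted p from 0.0205 to 0.0477. That count ran from 0, without OTII peripheral replicate 3 or W131AOTII peripheral replicate 1, to 7 when single libraries were left out. It was 1 or 2 without peripheral OTII replicate 1 or 2, peripheral W131AOTII replicate 2, thymic OTII replicate 1 or 2, or thymic W131AOTII replicate 2 or 3.

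**Figure D4:**
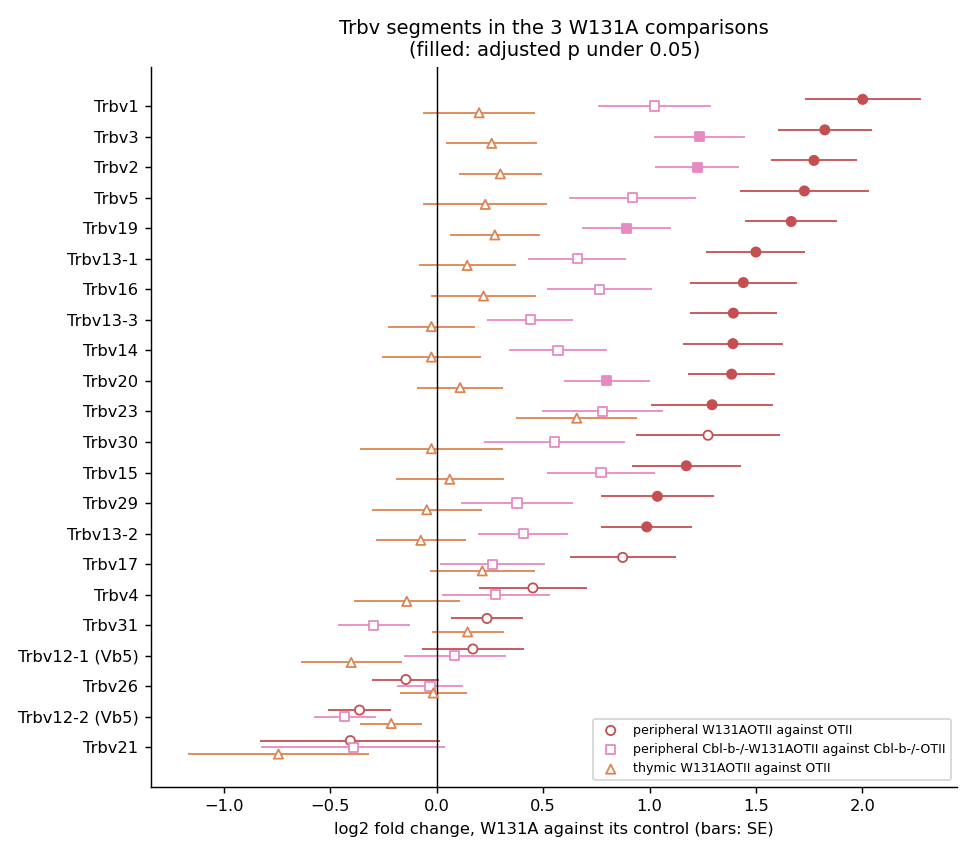
Log2 fold changes (x axis, bars SE) of the 22 Trbv segments (y axis) for W131A against its control in the periphery, in the periphery without Cbl-b and in the thymus, with filled symbols for an adjusted p under 0.05. The periphery had 14 filled segments, Trbv1 highest at 2.00, the periphery without Cbl-b had 4, and the thymus had 0.

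The alpha chain gave smaller and opposite differences in share. Segments other than Trav14 took 80.6%, 83.8% and 84.3% of Trav counts in peripheral OTII and 75.9%, 61.4% and 79.3% in peripheral W131AOTII libraries. Without Cbl-b they took 81.6%, 77.97% and 82.8% for OTII and 74.8%, 76.4% and 76.6% for W131AOTII, and W131A libraries were lower without overlap in both settings. In the thymus all 6 libraries lay between 83.4% and 85.0%. Averaged over the 3 strata the W131A difference was -5.34 percentage points (two-sided exact permutation test, p = 0.00175, adjusted p = 0.00525). The difference depended on which copies were counted as OT-II, since with Trav14-1 alone as the OT-II segment it was -0.18 (exact permutation adjusted p = 0.755). Periphery against thymus differed by -6.97 percentage points (exact permutation p = 0.005, the smallest the test can give, adjusted p = 0.01), of which -12.1 in W131AOTII and -1.84 in OTII cells. Without any 1 of the thymic W131AOTII libraries its exact permutation adjusted p was 0.11. With Trav14-1 alone that difference was -1.538 (exact permutation adjusted p = 0.09), and Cbl-b loss moved the alpha share by 0.81 percentage points (exact permutation p = 0.93, adjusted p = 0.93).

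Of the 5 tested Trav14 copies, Trav14-3 and Trav14n-3 were higher in peripheral W131AOTII cells and 3 did not pass. Trav14-1 had 25.1, 24.2 and 22.5 CPM in OTII and 21.7, 29.2 and 18.5 CPM in W131AOTII libraries (log2 fold change -0.05, SE 0.18). Trav14-3 had 4.01, 4.79 and 2.94 CPM in OTII and 8.90, 16.5 and 6.62 CPM in W131AOTII libraries (log2 fold change 1.44, SE 0.31, adjusted p = 0.0134), and Trav14n-3 had 5.17, 6.50 and 5.67 CPM against 9.01, 20.02 and 8.66 CPM (log2 fold change 1.12, SE 0.28, adjusted p = 0.0468). The groups were separate, but W131AOTII replicate 2 was the highest library for both segments. Without it the log2 fold changes were 0.998 (adjusted p = 0.123) and 0.625 (adjusted p = 0.473), and neither was past the threshold. Trav14-3 also lost the call without OTII replicate 1 or 3, and Trav14n-3 without any 1 of the OTII libraries. That library also had a summed level of 5 B cell markers of 999.6 CPM, against 102.9 and 158.6 CPM in the other W131AOTII libraries and 142.9 to 163.0 CPM in OTII, and 4 myeloid markers at 79.9 CPM against at most 16.8 in those libraries. The part of these cells in the Trav14 values was not tested. Trav14-2 (log2 fold change 1.03) and Trav14d-3-dv8 (1.15) did not pass.

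Alpha segments other than Trav14 had few calls in the peripheral W131A comparisons. Trav7-5 was lower in peripheral W131AOTII cells, with 13.7, 15.7 and 15.2 CPM in OTII and 7.99, 7.71 and 11.1 CPM in W131AOTII libraries (log2 fold change -0.73, SE 0.17, adjusted p = 0.0211). It was the only one of the 59 tested other alpha segments past the threshold there (1.7%, where 1.93% of all genes changed). It lost the call in 5 of 6 leave-one-out fits, with edgeR adjusted p up to 0.192. At an unadjusted p under 0.05 the edgeR test gave 12 of the 59 lower and 1 higher. DESeq2 called 4 lower and 0 higher, and 41 of the 59 had a negative log2 fold change. Without Cbl-b, Trav7-5 (-0.81, SE 0.17, adjusted p = 0.0122) and Trav13-1 (-0.69, SE 0.17, adjusted p = 0.0418) were lower. The edgeR adjusted p of Trav7-5 ran from 0.0215 to 0.0754 when single libraries were left out, and that of Trav13-1 from 0.0278 to 0.21. These 2 were 3.4% of the 59, where 1.89% of all genes changed. At an unadjusted p under 0.05 the edgeR test gave 19 lower and 1 higher without Cbl-b. DESeq2 called 5 lower and 0 higher, and 43 of the 59 were negative. The 1.93% and 1.89% are for edgeR adjusted p and are no background for the unadjusted and DESeq2 counts.

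In thymic W131AOTII against OTII cells 6 other alpha segments were lower and 0 higher, the background being the 2.77% given above. Trav12-2 had 15.1, 12.1 and 16.1 CPM in OTII and 7.18, 7.24 and 8.02 CPM in W131AOTII libraries (log2 fold change -0.95, SE 0.18, adjusted p = 0.00512). Trav17 had 10.5, 9.40 and 10.3 CPM against 6.22, 4.74 and 4.90 CPM (-0.93, SE 0.19, adjusted p = 0.00812). The remaining 4 were Trav3-3 (-0.96, SE 0.20), Trav6-7-dv9 (-1.16, SE 0.24), Trav9-4 (-1.25, SE 0.31) and Trav4-3 (-0.98, SE 0.25). All 6 lay among the 21 most downstream of the tested segments, those nearest to the joining segments. Trac itself was lower in the same comparison, with log2 fold change -0.58 (SE 0.15, adjusted p = 0.0363), and 51 of the 59 segments had a negative log2 fold change (median -0.47). The count was 2 without thymic OTII replicate 3 and 0 in a fit of the 6 thymic libraries alone.

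Loss of Cbl-b was compared in both genotypes. In Cbl-b-/-OTII against OTII cells 5 beta segments were higher, Trbv3, Trbv20, Trbv19, Trbv15 and Trbv14, and Trav1 was lower, 6 of 86, where 8.21% of all genes changed (5.22% higher and 2.99% lower). Of the 20 other beta segments 19 had a positive log2 fold change, with a median of 0.63 against 0.045 over all genes, and DESeq2 called 8 of them. Trbv3 had the largest of these differences (log2 fold change 1.03, SE 0.22, adjusted p = 0.0102), and its adjusted p rose to 0.0845 in 1 of 6 leave-one-out fits. The count of 6 was 1 without OTII replicate 1, without OTII replicate 2 or without Cbl-b-/-OTII replicate 2, 0 without OTII replicate 3 and 3 without Cbl-b-/-OTII replicate 1. When W131AOTII cells with and without Cbl-b were compared, Trav1 and Trav14n-3 were lower in the Cbl-b-/- cells and 0 segments higher, where 9.25% of all genes changed (3.18% higher and 6.08% lower). Trav1 had 6.21, 6.50 and 6.03 CPM in OTII, and 6.09, 5.88 and 6.85 CPM in W131AOTII libraries. Without Cbl-b it had 3.65, 4.32 and 4.199 CPM for OTII and 3.90, 3.66 and 4.03 CPM for W131AOTII. All 6 peripheral Cbl-b-/- libraries lay below the 6 others. The log2 fold changes of Trav1 were -0.62 (SE 0.18, adjusted p = 0.044) and -0.70 (SE 0.18, adjusted p = 0.026), and 6 of 6 and 5 of 6 leave-one-out fits lost the call, with adjusted p up to 0.13. Of the 20 other beta segments edgeR called 0 in W131AOTII cells (median log2 fold change -0.06), 1 was higher at an unadjusted p under 0.05 and DESeq2 called 0. The count of 2 in W131AOTII cells was 0 without W131AOTII replicate 2 or without any 1 of the Cbl-b-/-W131AOTII libraries. These comparisons share libraries with the W131A comparisons above.

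Between periphery and thymus the other beta segments of OTII cells stood above the background of all genes. In OTII cells 12 of 86 segments were lower in the periphery and 0 higher, where 18.3% of all genes changed (7.75% higher and 10.6% lower). That is 14.0% of the segments, and the 12 were 9 of 20 other beta segments (45.0%), 2 of 59 other alpha segments (3.4%) and Trbv12-1. Trbv19 had 36.8, 50.0 and 24.2 CPM in thymic and 18.5, 16.5 and 16.9 CPM in peripheral OTII libraries (log2 fold change -1.10, SE 0.21, adjusted p = 0.00105). Trbv13-2 had 82.2, 98.2 and 64.1 CPM against 38.5, 41.4 and 36.5 CPM (-1.07, SE 0.21, adjusted p = 0.0013), and Trbv29 had -1.34 (SE 0.27, adjusted p = 0.00127). Within Vb5, Trbv12-1 was lower in the periphery, with 23.6, 33.6 and 21.7 CPM in thymic and 12.6, 10.5 and 9.93 CPM in peripheral OTII libraries (-1.26, SE 0.24, adjusted p = 0.000958), while Trbv12-2 had 0.33 (SE 0.15, adjusted p = 0.128). The 2 Vb5 segments thus lay on opposite sides of 0.

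In W131AOTII cells 15 segments were higher in the periphery and 4 lower, where 19.2% of all genes changed (8.07% higher and 11.2% lower). That is 22.1% of the segments, and 16.9% of the other alpha segments. The beta segments among them, Trbv13-3 (1.23, SE 0.21), Trbv1 (1.25, SE 0.27), Trbv14 (0.80, SE 0.23), Trbv3 (0.77, SE 0.21) and Trbv2 (0.70, SE 0.20), were all higher. Trbv3 was lower in the periphery in OTII cells (-0.80, SE 0.22), and so was Trbv2 (-0.78, SE 0.20). Of the 5 tested Trav14 copies 4 were higher, led by Trav14-3 (1.87, SE 0.31, adjusted p = 0.000231), which kept its call in all leave-one-out fits with log2 fold changes from 1.43 to 2.12. Other calls were less stable, since Trav2 lost its call in 6 of 6 leave-one-out fits (adjusted p 0.0595 to 0.135), Trav17 in 3 (without peripheral replicate 3 or thymic replicate 2 or 3 of W131AOTII), Trbv3 in 2 (without peripheral or thymic W131AOTII replicate 1) and Trav14d-3-dv8 in 1 (without peripheral W131AOTII replicate 2). Trav1 was lower in both genotypes, with 13.5, 9.56 and 10.5 CPM in thymic OTII and 11.9, 13.5 and 11.9 CPM in thymic W131AOTII libraries against 5.88 to 6.85 CPM in the peripheral libraries of these genotypes. Its log2 fold changes were -0.84 (SE 0.18, adjusted p = 0.00236) and -0.99 (SE 0.18, adjusted p = 0.000509).

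Position in the alpha locus went with the difference between periphery and thymus. Over the 59 tested other Trav segments, Spearman's rho between position and log2 fold change was 0.51 in OTII and 0.53 in W131AOTII cells. The 19 most upstream segments had median log2 fold changes of -0.50 and -0.28, the 19 in the middle -0.24 and -0.08, and the 21 most downstream 0.11 and 0.43. In W131AOTII cells all 6 segments other than Trav14 that were called higher (Trav21-dv12, Trav19, Trav17, Trav6-7-dv9, Trav9-4 and Trav4-4-dv10) were in the most downstream set, and 3 of the 4 called lower were in the most upstream set. The joining segments showed the mirror image. Over 49 Traj segments rho was -0.67 and -0.83, and the 24 upstream ones, which lie nearest to the V segments, had medians of 0.20 and 0.77 against -0.11 and -0.17 for the 25 downstream ones. The V and J segments that lie closest to each other were thus relatively higher in peripheral cells. These are descriptions across segments that share libraries and a locus. The 2 comparisons share no library.

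**Figure D5:**
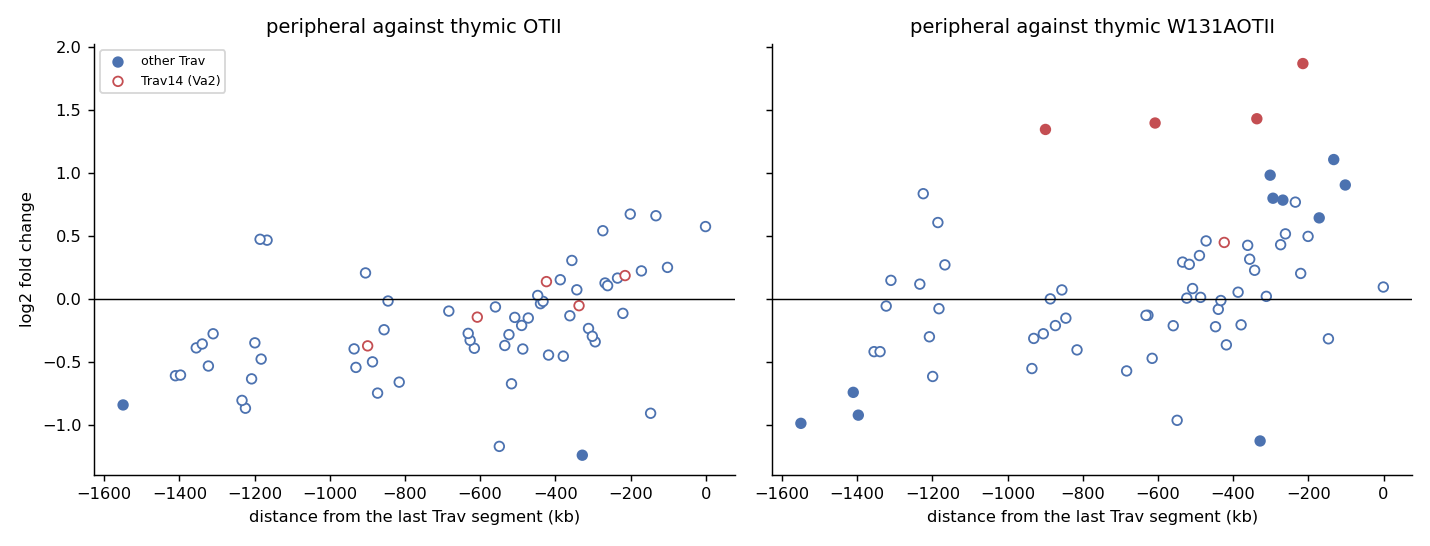
Log2 fold change of peripheral against thymic cells (y axis) for 64 Trav segments by distance from the last segment of the locus (x axis, kb), in OTII (left) and W131AOTII cells (right), Trav14 in red and filled symbols for an adjusted p under 0.05. The 21 most downstream of the other segments had medians of 0.11 and 0.43, against -0.50 and -0.28 for the 19 most upstream.

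Alpha joining segments were dominated by Traj31, whereas beta joining counts were spread more widely. Traj31 held 76.9% to 90.05% of Traj counts in every library, and Trbj2-4 was the largest Trbj segment with 19.8% to 32.7%. The mean Trbj2-4 share was 29.5% in peripheral OTII and 24.4% in W131AOTII cells, and without Cbl-b it was 30.8% and 22.3%. With Cbl-b the peripheral libraries overlapped, at 25.2%, 32.7% and 30.6% in OTII and 24.1%, 21.7% and 27.4% in W131AOTII. Thymic libraries overlapped too and showed no such drop, at 21.5%, 20.6% and 22.8% in OTII and 24.0%, 19.8% and 25.2% in W131AOTII. The Trbj2-4 level was not called different in any of the 9 comparisons. In W131AOTII cells 8 of 49 Traj segments were higher in the periphery than in the thymus, namely Traj58, Traj57, Traj56, Traj53, Traj50, Traj49, Traj43 and Traj37. Traj31 was lower (-0.46, SE 0.14, edgeR adjusted p = 0.0277). In this comparison 19.2% of all genes changed (8.07% higher and 11.2% lower).

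Other genes of the receptor were followed in fixed lists. Of all genes, 1.93% changed with W131A in the periphery, 1.89% without Cbl-b and 2.77% in the thymus. Of 7 constant genes Trdc, of the delta chain, was higher in peripheral W131AOTII than OTII cells, with 64.7, 67.7 and 56.0 CPM in OTII and 290.9, 167.8 and 147.8 CPM in W131AOTII libraries (log2 fold change 1.69, SE 0.29, adjusted p = 0.00196). It was higher without Cbl-b too (1.34, SE 0.29, adjusted p = 0.0149), where Trac was lower (-0.60, SE 0.15, adjusted p = 0.0395). The 5 genes of the CD3 complex and pre-receptor gave 0 calls in each of the 3 W131A comparisons. Of 16 recombination genes only Hmgb1 passed in these 3 W131A comparisons, lower in W131AOTII cells of periphery and thymus. In the periphery Rag1, which cuts at the segments, had 0 to 6 counts per library, and in the thymus 12 to 80 counts. Of the 10 tested Trdv and Trgv segments of gamma delta receptors Trdv4 (2.29, SE 0.49) and Trdv5 (2.03, SE 0.41) were higher in peripheral W131AOTII cells. For W131A without Cbl-b and in the thymus 0 of the 10 were called.

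Markers of other cells moved with the beta segments in part. The shares of all genes changed with W131A were 1.93% in the periphery, 1.89% without Cbl-b and 2.77% in the thymus. The summed level of 4 gamma delta T cell markers was 69.6 to 82.6 CPM in peripheral OTII and 158.2 to 396.7 CPM in W131AOTII libraries, and without Cbl-b 85.4 to 134.3 CPM and 258.9 to 337.0 CPM. Of the 4, Trdc was called in both peripheral W131A comparisons. In the thymus it was 473 to 1337 CPM in OTII and 511 to 1423 in W131AOTII libraries. All 4 regulatory T cell markers, Foxp3 (2.25, SE 0.20), Ctla4 (1.80, SE 0.24), Ikzf2 (1.59, SE 0.37) and Il2ra (1.57, SE 0.16), were higher in peripheral W131AOTII than OTII cells. Their summed levels were 245.1 to 262.0 CPM against 63.8 to 67.9 CPM in OTII, and 249.8 to 309.8 against 93.0 to 127.5 CPM without Cbl-b, where 3 of 4 were called. In the thymus 2 of 4 were called, at 97.4 to 117.3 CPM in W131AOTII and 42.7 to 68.8 CPM in OTII libraries. Of 4 innate-like T cell markers Tbx21 and Klrd1 were higher in peripheral W131AOTII cells, and Zbtb16 was higher in the thymic ones (524, 229 and 118 counts against 11, 27 and 17 in OTII). Without Cbl-b 0 of these 4 were called for W131A. Their median log2 fold change there was 0.011, with Tbx21 at -0.52 and Klrd1 at 0.77. The lists of 5 CD4 T cell, 2 CD8 T cell, 5 B cell, 4 myeloid and 5 immature thymocyte markers gave 0 calls in the peripheral W131AOTII comparison. In the 3 W131A comparisons the only calls in these 5 lists were Trac, in the thymus and without Cbl-b, and Lyz2, lower without Cbl-b. The part of these cells in the beta segment values was not tested.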

How the data were processed

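The values used are the unnormalised counts that the authors deposited, with genes as rows and the 18 libraries as columns. The submitters' processing notes name STAR 2.7.2, the build GRCm38 and DESeq2. Per the labels' protocols, reads were single-end of 50 bases from a Nugen/Nextera XT library. The sources used here do not give the counting tool, its strand setting or its handling of reads with several matches. Groups came from the sample titles, and 0 pairs of columns were identical.

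All 18 libraries entered 1 edgeR 4.0.16 fit (R 4.3.3; filterByExpr, TMM scaling, robust quasi-likelihood F test, 12 residual degrees of freedom, Benjamini-Hochberg adjustment over 15204 genes, threshold 0.05), with 9 contrasts. CPM values are TMM-scaled, and levels between segments are per kilobase of exon. Shares were tested by exact permutation of libraries within strata. Uniqueness was counted in 50-base windows against GENCODE M21 transcripts, since no genome was used. Sequences were read from those transcripts. The edgeR fit was tested on simulated counts for the comparison of peripheral W131AOTII against OTII cells. Segments were named by a rule: all Trav14 and Trbv12 segments, the 8 largest others of each locus, Trav1 and Trav11, and up to 6 per direction and comparison by adjusted p; others named to complete a count were chosen after their values were seen. The members and lists were chosen with earlier results of these data known. Alternatives were other scalings, no filter, DESeq2 1.42.0, only the groups compared, a replicate block, copies summed, left-out libraries and other OT-II definitions.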

Additional observations from a re-analysis of the deposited data

Results flagged for a closer look

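The W131A effect differed between periphery and thymus for 5 beta segments by a test of the difference itself (edgeR quasi-likelihood test, adjusted p from 0.0205 to 0.0477). The difference of the log2 fold changes was 1.803 for Trbv1, 1.566 for Trbv3, 1.474 for Trbv2, 1.419 for Trbv13-3 and 1.393 for Trbv19. By the same test 0.381% of all genes changed. The call was lost in 9 of 12 leave-one-out fits for Trbv1, 5 for Trbv3, 2 for Trbv2, 9 for Trbv13-3 and 10 for Trbv19. All 3 peripheral W131AOTII libraries lay above all 3 peripheral OTII libraries for each of them, which does not bear on the thymic libraries.

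A signal also appeared outside the genes counted as V segments. Trbv24, annotated as a V pseudogene, had 2607 counts over the 18 libraries, with 90 to 212 counts in each.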

How the results depend on the processing

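When single libraries were left out, the number of changed segments ran from 10 to 19 for W131A in the periphery, 2 to 7 for W131A without Cbl-b, 2 to 6 for W131A in the thymus, 0 to 9 and 0 to 3 for Cbl-b loss in OTII and W131AOTII cells, 9 to 15 and 13 to 17 for periphery against thymus in OTII and W131AOTII cells, 0 to 7 for the tissue difference of the W131A effect and 0 to 1 for the interaction. The thymic W131A count was 0 with only the groups compared and 2 without the 3 libraries that stood apart. W131A without Cbl-b gave 11 segments by DESeq2 and 3 with only the groups compared. Cbl-b loss gave 1 segment in OTII and 0 in W131AOTII cells without the 3 libraries, and in W131AOTII cells 0 with library-size scaling and 1 with the replicate block. The tissue difference gave 15 by DESeq2 and 15 without the filter, and the interaction gave 2 without the filter.

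The alpha share difference for W131A was -0.178 (exact permutation adjusted p = 0.755) with only Trav14-1 as OT-II. For periphery against thymus it was -1.538 (0.09) so defined and -0.104 (0.228) as log2 CPM, ran from -8.746 to -4.277 when single libraries were left out, and was not past the threshold without any 1 thymic W131AOTII library (0.11). The replicate block left it at -6.97 (exact sign test, 0.0625). The beta difference was 0.268 for W131A (0.0525) and 1.19 for tissue (0.01) with only Trbv12-1 as OT-II. The beta tissue difference, -4.19 with both Vb5 segments, thus changed sign. The Cbl-b differences, not past the threshold, also changed sign when single libraries were left out, from -1.88 to 2.589 for alpha and from -0.168 to 2.115 for beta. Same-numbered libraries correlated from -0.304 to 0.205, so the numbers were not taken as pairs.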
